A study of Homo sapiens with 16 samples.

Results

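The study deposited 2 sets of unedited control libraries of the same human cell line, and the set whose genotype label refers to SLC30A10, the gene of 1 knockout, was compared with the set whose label refers to the gene of a second knockout. These 8 libraries, 4 in each set, were chosen by the genotype label and the sample title out of 16 libraries in all. Poly-A RNA was sequenced as read pairs on a DNA nanoball platform. The other 8 libraries are HAP1 cells with a deletion of the manganese exporter gene SLC30A10 (4) or of another gene (4). HAP1 is a near-haploid, adherent line derived from the chronic myeloid leukaemia line KBM-7.

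Both control sets carry the wild-type genotype and the same cell line identifier, and neither received a treatment. The 16 libraries share a single growth protocol: IMDM medium with fetal bovine serum, penicillin and streptomycin. They are called here the SLC30A10 control set and the second control set. The labels do not say whether the 4 libraries of a set came from separate cultures, nor give a passage number, a date or a sequencing batch. The gene tests were fitted on all 16 libraries. Their p-values therefore measure the spread between libraries within all 4 groups, knockouts included, which may be technical. Whatever separates the 2 experiments cannot be told apart from whatever separates the 2 cultures.

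The pathways described below are those by which cultured cells adjust to nutrients, oxygen, damaged protein and growth signals. In the integrated stress response, phosphorylation of the initiation factor eIF2 slows translation and favours synthesis of the transcription factor ATF4, which induces amino acid metabolism genes and, on sustained stress, CHAC1 and DDIT3. Scarce oxygen stabilises HIF1A, which induces glycolytic enzymes and mitophagy receptors, while HSF1 induces chaperones when proteins misfold. Growth is tied to ribosome production, in which nucleolar assembly factors build the subunits and ribosomal proteins form them.

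Library totals were even, at 16201988 to 16634123 counts in the SLC30A10 control set and 16505238 to 16648151 in the second control set (two-sided exact permutation test, p = 0.114, where the smallest p that 4 against 4 libraries can give is 0.0286). SLC30A10 itself had 6 to 9 counts in each library of its control set and 3 to 11 in each library of its knockout, too few to check the labels. On the first principal component of log2 CPM in the 8 control libraries (51.1% of the variance), library 3 of the SLC30A10 control set lay at -32.4 and its other libraries between -17.6 and -11.5, against 16.1 to 23.2 in the second control set. Library 3 thus stood furthest from the second control set. Within the second control set, libraries 1 and 2 were alike and libraries 3 and 4 were alike (chi-square per degree of freedom 2.08 and 1.70), whereas pairs across these differed more (3.01 to 5.33). Where leaving out libraries 1 and 2 of the second control set, or library 3 of the SLC30A10 control set, moved a main list count by more than 1.5 times, the count without them is given beside it.

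Between the control sets, 6111 of 15569 tested genes (39.3%) passed an adjusted p of 0.05 by edgeR's quasi-likelihood test with Benjamini-Hochberg adjustment. The SLC30A10 control set was above the other at 2875 genes (18.5% of all tested genes) and below it at 3236 (20.8% of all tested genes). The list counts below are to be read against these 2 shares. Without library 3 of the SLC30A10 control set 5053 genes passed. Leaving out libraries 1 and 2 of the second control set gave 3783 (1721 higher, 2062 lower). Most of these differences were small: the median absolute log2 difference of the genes that passed was 0.282, and 218 of them reached a log2 difference of 1, 133 higher and 85 lower. The 2 sets did not overlap at 5657 genes (36.3%). All differences below are log2 values of the SLC30A10 control set minus the second control set, ± SE, and levels are counts per 1000000 of the scaled library size (CPM), which allow comparison of a gene between libraries and not of genes of different length. In such bulk libraries fewer cells of a type and less RNA per cell cannot be told apart.

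Genes of the hypoxia response were lower in the SLC30A10 control set. Of 24 listed genes 23 were tested, and 17 were lower and 0 higher, with a median log2 difference of -0.56 against -0.01 over all tested genes. BNIP3, a mitophagy receptor, stood at 167, 125, 112 and 138 CPM in libraries 1 to 4 of the SLC30A10 control set and at 349, 291, 199 and 256 CPM in the second control set. Every library of the second control set lay above every library of the other, and library 1 was the highest in both sets. The log2 difference was -1.01 ± 0.13 (adjusted p = 1.06e-06), or 2.02-fold. Its paralogue BNIP3L differed by -0.94 ± 0.11. PDK1, the kinase that closes pyruvate dehydrogenase and a gene named here after its values were seen, measured 60.7, 45.1, 35.6 and 48.8 CPM against 110.05, 93.5, 65.8 and 79.3 CPM (log2 difference -0.87 ± 0.14). The angiogenic growth factor VEGFA ranged from 60.7 to 80.1 CPM against 101 to 124 CPM (-0.68 ± 0.08), also without overlap. The secreted glycoprotein gene STC1 had the largest difference of the list at -1.38 ± 0.25, although its highest SLC30A10 control library, at 10.7 CPM, came close to the lowest second control library at 12.0 CPM. ANKRD37 differed by -0.97 ± 0.16 at levels of 2.68 to 4.33 CPM and 5.48 to 7.95 CPM. HIF1A itself did not pass (0.07 ± 0.04, adjusted p = 0.212), nor did the glucose transporter gene SLC2A1 (-0.12 ± 0.08, adjusted p = 0.218). CA9 had too few counts to be tested.

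Glycolysis genes followed the same direction: 14 of 20 were lower and 0 higher, with a median of -0.27. The aldolase ALDOC stood at 45.2, 37.9, 24.1 and 37.04 CPM in the SLC30A10 control set and 137, 114, 59.5 and 76.7 CPM in the second control set (2.68-fold, log2 difference -1.42 ± 0.18, adjusted p = 1.56e-06). The muscle-type aldolase ALDOA, differed by -0.39 ± 0.06, and the lactate dehydrogenase subunit LDHA by -0.52 ± 0.08. The 20 genes together took 1.63% to 1.7112% of all counts in the SLC30A10 control libraries and 1.7107% to 2.19% in the second control libraries, with a slight overlap.

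The size of both differences varied within the second control set. As the per-library medians show, libraries 1 and 2 held the highest hypoxia and glycolysis values and library 3 the lowest of that set. Without libraries 1 and 2 of the second control set, 12 hypoxia genes (median -0.37) and 9 glycolysis genes (median -0.13) were lower. Without library 3 of the SLC30A10 control set the counts were 17 and 14 and the medians -0.47 and -0.25.

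**Figure D1:**
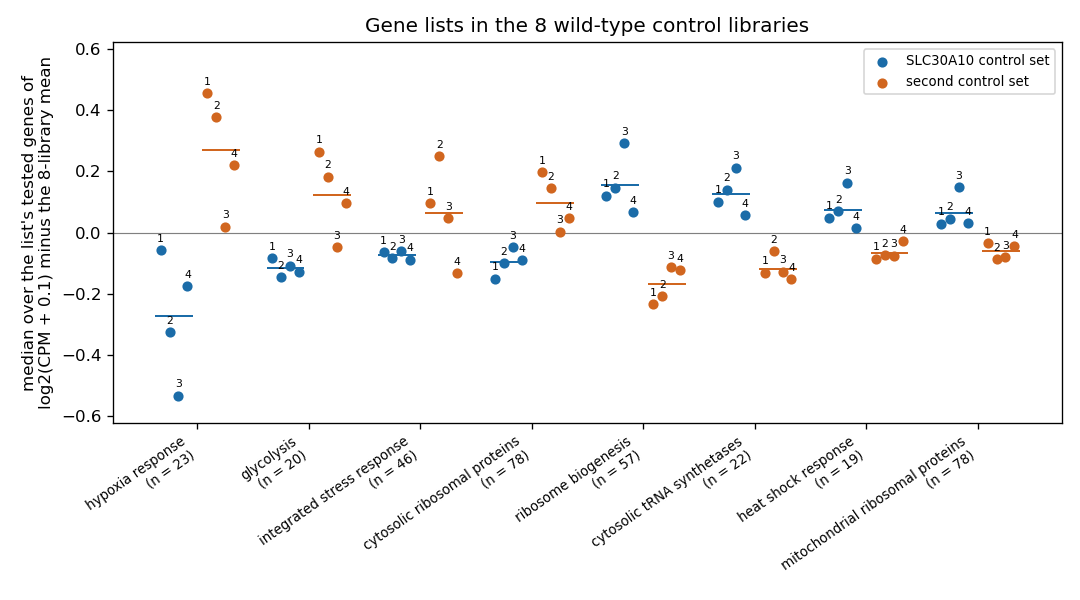
Each point is a control library (numbered by its replicate number), and its height is the median over the tested genes of a list of log2(CPM + 0.1), centred for each gene on its mean over the 8 control libraries; lines are means of the 4 libraries of a set. The hypoxia medians run from -0.53 to -0.06 in the SLC30A10 control set and from 0.02 to 0.45 in the second control set, while those of ribosome biogenesis run from 0.07 to 0.29 and from -0.23 to -0.11.

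The integrated stress response list was divided. Of 50 listed genes 46 were tested, of which 7 were higher and 14 lower among the SLC30A10 controls, with a median of -0.16. The lower members made up 30.4% of the tested list, against 20.8% of all tested genes. Those that were lower include genes of its later arm, induced on sustained stress. CHAC1, which encodes an enzyme that degrades glutathione, had the most negative difference of the genes named here and stood at 4.69, 5.16, 4.39 and 5.54 CPM in the SLC30A10 control set and 37.5, 43.7, 36.3 and 14.8 CPM in the second control set. All second control libraries lay above the others, and library 4 lay well below its 3 companions. The log2 difference was -2.74 ± 0.21 (adjusted p = 1.94e-09), or 6.68-fold. DDIT4, an inhibitor of mTORC1 signalling that is also induced by low oxygen, measured 66.2, 45.7, 30.7 and 60.1 CPM against 229.6, 209.6, 130.00 and 138 CPM (-1.80 ± 0.18, adjusted p = 3.37e-08). Here library 3 of the SLC30A10 control set was the lowest of the 8, and without it the difference was -1.62. The stress-induced transcription factor gene ATF3 stood at 16.1 to 17.95 CPM against 22.9 to 39.4 CPM (adjusted p = 1.54e-04) and the leucine sensor gene SESN2 at 26.6 to 32.8 CPM against 35.3 to 73.5 CPM (adjusted p = 0.00130). Both were lower without overlap of the sets, as was DDIT3, which encodes the transcription factor CHOP (-0.88 ± 0.23). DDIT3 was at 13.8 to 15.7 CPM against 18.9 to 31.9 CPM, and without libraries 1 and 2 of the second control set it did not pass (-0.69, adjusted p = 0.0763).

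The higher members made up 15.2% of the list, against 18.5% of all tested genes. SLC7A5, the light chain of a leucine transporter, stood at 429, 471, 513 and 441 CPM in the SLC30A10 control set and 322, 385, 337 and 283 CPM in the second control set (0.48 ± 0.11), with no overlap. PHGDH, the first enzyme of serine synthesis, differed by 0.30 ± 0.08 and the transcription factor gene ATF5 by 0.57 ± 0.16. PHGDH did not pass without libraries 3 and 4 of the second control set, nor ATF5 without libraries 1 and 2. ATF4 mRNA ranged from 541 to 581 CPM against 432 to 532 CPM and did not pass (0.16 ± 0.09, adjusted p = 0.162), although it did in the fit of the 8 control libraries alone. Neither did asparagine synthetase (ASNS, 0.27 ± 0.17), although it too passed in the fit of the 8 control libraries alone. TRIB3, a pseudokinase that restrains ATF4, did not pass (-0.01 ± 0.23). ATF4 is regulated mainly in its translation, which these data do not measure. Without libraries 1 and 2 of the second control set, 7 members were higher and 6 lower. Lower calls over all tested genes fell from 3236 to 2062 in that fit. The list's share of lower members was then close to that of all tested genes.

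Heat shock genes were more often higher than lower in the SLC30A10 control set. Of 19 tested genes 12 were higher and 0 lower (8 and 0 without libraries 1 and 2 of the second control set), with a median of 0.16. HSPA8, the constitutive cytosolic HSP70, stood at 2812, 2756, 3518 and 2615 CPM in the SLC30A10 control set and 1904, 1803, 2008 and 2156 CPM in the second control set. The sets did not overlap, and library 3 of the SLC30A10 control set was the highest of all. The log2 difference was 0.57 ± 0.07 (adjusted p = 6.47e-07) and, without library 3, 0.48. The HSP90 co-chaperone CHORDC1 differed by 0.51 ± 0.07 and the J-domain protein gene DNAJA1 by 0.47 ± 0.08. HSP90AB1, the constitutive HSP90, did not pass (-0.02 ± 0.03, adjusted p = 0.698). Among ER chaperones and unfolded protein response genes, 12 of 30 were higher and 6 lower (9 and 4 without libraries 1 and 2 of the second control set, median 0.09). HSPA5, the main HSP70 of the endoplasmic reticulum, measured 541, 545, 622 and 495 CPM against 365, 370.2, 403 and 415 CPM (0.50 ± 0.06, adjusted p = 2.19e-07), without overlap.

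The antioxidant genes showed no common direction, with 6 of 24 NRF2 targets and antioxidant genes higher and 5 lower (4 and 3 without libraries 1 and 2 of the second control set, median 0.02). NQO1, a quinone reductase, was nonetheless 2.23-fold higher in the SLC30A10 control set, at 58.9, 56.4, 68.8 and 57.5 CPM against 30.9, 25.3, 24.99 and 26.9 CPM (log2 difference 1.16 ± 0.09, adjusted p = 1.97e-09). Catalase (CAT) lay on the other side at -0.25 ± 0.05. Metallothioneins bind zinc and copper, and their list also holds MTF1, the zinc-sensing transcription factor that induces them. Of the 6 tested genes 4 were higher and 0 lower (median 0.28), and 1 of the 4 was MTF1 (0.20 ± 0.06), which did not pass without libraries 1 and 2 of the second control set. MT2A ranged from 87.4 to 129 CPM against 77.2 to 83.1 CPM (0.39 ± 0.08) and MT1E from 102 to 145 CPM against 81.5 to 91.5 CPM (0.49 ± 0.07). Metallothionein genes are near-identical to each other, so reads may be split among them.

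Among lists with 10 or more tested genes, ribosome biogenesis had the largest share of members called on one side. Of 58 listed genes 57 were tested, of which 50 were higher and 1 was lower among the SLC30A10 controls, where 18.5% of all tested genes were higher. The median was 0.31, and the sets did not overlap at 48 of the 57 genes, against 36.3% of all tested genes. NOP2, a methyltransferase of the large-subunit ribosomal RNA, stood at 119.7, 120.1, 145 and 112 CPM in the SLC30A10 control set and 70.5, 70.98, 86.6 and 79.2 CPM in the second control set (log2 difference 0.69 ± 0.07, adjusted p = 3.17e-08). Within each set library 3 was the highest for NOP2. NOP56, a core protein of the box C/D particles that guide ribosomal RNA methylation, measured 345, 345, 382 and 341 CPM against 240.4, 247, 264 and 269.9 CPM (0.47 ± 0.04). UTP15 (0.72 ± 0.08) and UTP14A (0.63 ± 0.08), both of the small-subunit processome, RRS1 (0.70 ± 0.08), which acts in large-subunit assembly, and the pseudouridine synthase DKC1 (0.41 ± 0.04) differed without overlap too. The exception was FBL, the methyltransferase of the box C/D particles, which was lower at -0.13 ± 0.04 and did not pass without libraries 1 and 2 of the second control set (-0.09, adjusted p = 0.139). Without library 3 of the SLC30A10 control set 48 members were higher and 1 lower (median 0.27), and without libraries 1 and 2 of the second control set 47 were higher and 0 lower (median 0.26).

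Since these genes moved together, their RefSeq promoters (GRCh38.p14, from 250 bases before to 50 after the gene's start) were searched on both strands. The E-box CACGTG, the binding letters of MYC and related factors, lay in 18 of 47 ribosome biogenesis promoters that could be matched (38.3%), against 10.1% of the promoters of tested genes and 7.26% of all 35116 promoters, and 0% to 16.7% in the 7 other lists searched. A match describes letters and is not evidence of binding. Promoters of 4 genes with an E-box and a large difference are shown to let the position of the motif be seen. The motif is in capitals. These genes are examples and need not be the 4 with the largest difference. BNIP3 of the hypoxia list follows, with capitals for ACGTG, the A form of the hypoxia response element core, on both strands. CHAC1 comes last, with capitals for the amino acid response element core TGATGNAAN. ACGTG is contained in every CACGTG. It lay in 8 of 18 hypoxia promoters (44.4%) and 26.3% of those of tested genes, or 21.4% of all promoters. It was not particular to hypoxia, as it also lay in 23 of 47 ribosome biogenesis promoters (48.9%) and 8 of 19 glycolysis promoters (42.1%). TGATGNAAN lay in 5 of 37 integrated stress response promoters (13.5%), 1.55% of those of tested genes and 3.61% of all promoters.
NOP2 (chr12:6568242-6568541, minus strand): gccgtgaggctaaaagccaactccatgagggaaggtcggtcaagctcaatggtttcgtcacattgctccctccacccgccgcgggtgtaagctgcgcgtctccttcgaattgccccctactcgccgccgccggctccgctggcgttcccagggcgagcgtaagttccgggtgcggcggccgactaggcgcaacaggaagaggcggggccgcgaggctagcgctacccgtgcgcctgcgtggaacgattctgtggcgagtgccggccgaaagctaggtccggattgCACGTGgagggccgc
UTP14A (chrX:129905914-129906213, plus strand): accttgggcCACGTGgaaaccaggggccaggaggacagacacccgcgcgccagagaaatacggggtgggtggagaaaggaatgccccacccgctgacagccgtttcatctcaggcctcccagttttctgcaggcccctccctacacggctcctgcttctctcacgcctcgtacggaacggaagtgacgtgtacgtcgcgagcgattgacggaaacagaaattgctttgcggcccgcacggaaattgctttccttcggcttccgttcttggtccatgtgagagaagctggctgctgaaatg
LTV1 (chr6:143843088-143843387, plus strand): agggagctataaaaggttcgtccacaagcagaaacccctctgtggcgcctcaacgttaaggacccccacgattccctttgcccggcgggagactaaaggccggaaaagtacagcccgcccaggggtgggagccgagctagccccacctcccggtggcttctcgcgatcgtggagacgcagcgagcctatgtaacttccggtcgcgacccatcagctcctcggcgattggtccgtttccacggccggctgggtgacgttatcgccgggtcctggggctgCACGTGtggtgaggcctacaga
NOL6 (chr9:33473875-33474174, minus strand): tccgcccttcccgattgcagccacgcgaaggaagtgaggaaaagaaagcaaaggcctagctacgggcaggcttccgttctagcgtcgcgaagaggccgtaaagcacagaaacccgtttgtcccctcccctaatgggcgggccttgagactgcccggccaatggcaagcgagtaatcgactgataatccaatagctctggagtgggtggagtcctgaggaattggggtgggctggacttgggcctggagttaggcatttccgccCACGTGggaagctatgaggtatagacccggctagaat
BNIP3 (chr10:131981874-131982173, minus strand): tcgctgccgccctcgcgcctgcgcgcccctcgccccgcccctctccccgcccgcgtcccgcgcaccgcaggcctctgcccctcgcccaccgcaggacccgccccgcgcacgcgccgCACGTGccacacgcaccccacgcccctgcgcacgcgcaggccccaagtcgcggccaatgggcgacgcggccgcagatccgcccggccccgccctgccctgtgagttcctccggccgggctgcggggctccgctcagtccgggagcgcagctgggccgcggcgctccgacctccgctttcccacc
CHAC1 (chr15:40953221-40953520, plus strand): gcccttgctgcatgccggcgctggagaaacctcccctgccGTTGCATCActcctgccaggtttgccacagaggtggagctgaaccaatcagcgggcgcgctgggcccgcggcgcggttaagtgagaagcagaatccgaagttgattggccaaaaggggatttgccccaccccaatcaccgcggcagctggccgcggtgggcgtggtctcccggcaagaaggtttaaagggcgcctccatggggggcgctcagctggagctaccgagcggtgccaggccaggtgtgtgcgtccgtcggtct

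In these promoters the E-box of NOP2, LTV1 and NOL6 lies towards the 3' end of the window and that of UTP14A near its 5' end. LTV1, a factor of small-subunit assembly, differed by 0.63 ± 0.06 and NOL6, a nucleolar protein of the small-subunit processome, by 0.60 ± 0.07. Both were shown for their motif and not by the naming rule. The heat shock element GAANNTTC lay in 6 of 17 heat shock promoters (35.3%) and 4.51% of those of tested genes (6.77% of all promoters). The antioxidant response element TGACNNNGC lay in 4 of 17 NRF2 list promoters (23.5%) and 14.9% of those of tested genes (13.3% of all), but also in 11 of 37 integrated stress response promoters (29.7%) and 4 of 17 heat shock promoters (23.5%). The sterol response element TCACNCCAC lay in 1 of 18 cholesterol synthesis promoters (5.56%) and 1.04% of those of tested genes (1.13% of all). The G form of the hypoxia core, GCGTG, was common everywhere, in 8 of 18 hypoxia promoters (44.4%) and 50.9% of those of tested genes (36.5% of all).

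The cytosolic ribosomal proteins ran opposite to the factors that assemble them. Of 79 listed genes 78 were tested, and 63 were lower and 2 higher in the SLC30A10 control set, where 20.8% of all tested genes were lower. The differences were narrow, with a median of -0.20, and the sets did not overlap at 53 of 78, against 36.3% of all tested genes. Summed over the 79 genes, ribosomal protein mRNA took 5.15%, 5.24%, 5.32% and 5.31% of the counts in the SLC30A10 control libraries and 6.34%, 6.12%, 5.74% and 5.82% in the second control libraries. Every second control library was above every SLC30A10 control library, and libraries 1 and 2 of the second control set were the highest. RPS3A measured 313, 314, 329 and 304 CPM against 415, 403, 386 and 401 CPM (-0.35 ± 0.04, adjusted p = 2.70e-07). RPL36A was 1 of the 2 exceptions (0.63 ± 0.09). Ribosomal protein genes have many processed pseudogenes, and how the counting treated such reads is not given in the sources used here, so the levels of single members are uncertain. Without libraries 1 and 2 of the second control set 42 members were lower and 2 higher (median -0.12).

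**Figure D2:**
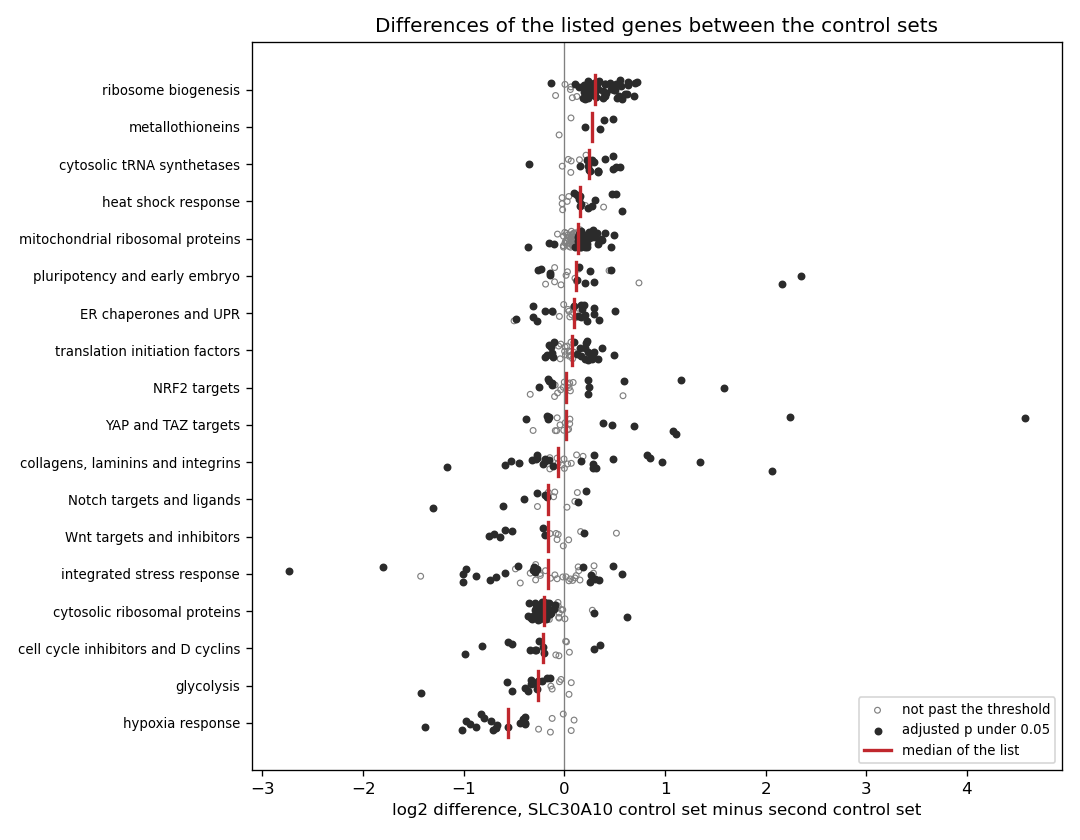
Each point is a tested gene of a list, placed by its log2 difference, SLC30A10 control set minus second control set; filled points passed an adjusted p of 0.05 and red bars are list medians. Ribosome biogenesis (50 of 57 higher) and cytosolic ribosomal proteins (63 of 78 lower) form tight clouds on opposite sides of 0, while the hypoxia list spreads out to -1.38.

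Most cytosolic tRNA synthetase genes were higher in the SLC30A10 control set. Among cytosolic aminoacyl-tRNA synthetases and their scaffold proteins, which charge tRNAs with amino acids, 15 of 22 tested genes were higher and 1 lower (median 0.25). The sets did not overlap at 19 of the 22, against 36.3% of all tested genes. The tyrosine enzyme YARS stood at 315, 334, 344 and 330.2 CPM against 245, 249, 218 and 217 CPM (0.51 ± 0.08, adjusted p = 9.54e-06). The cysteine enzyme CARS differed by 0.55 ± 0.14 and the methionine enzyme MARS by 0.48 ± 0.08. CARS did not pass without libraries 3 and 4 of the second control set. The aspartate enzyme DARS was the single gene on the other side (-0.35 ± 0.06). Initiation factors were mixed, with 17 of 38 higher and 7 lower (12 and 2 without libraries 1 and 2 of the second control set, median 0.07). EIF5, the GTPase-activating protein of start codon selection, was higher, at 406 to 499.8 CPM against 291 to 375 CPM (0.49 ± 0.07), as was the cap-binding inhibitor gene EIF4EBP1 (0.34 ± 0.07). EIF4B (-0.19 ± 0.04) and the helicase gene EIF4A2 (-0.15 ± 0.04), which unwind leader sequences, were lower, the second not without libraries 1 and 2 of the second control set. The elongation factor EEF1A1, an abundant mRNA with pseudogene copies, was lower like the ribosomal proteins, at 4389, 4469, 4466 and 4504 CPM against 5647, 5367, 4826 and 4987 CPM (-0.22 ± 0.04).

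Of the mitochondrial ribosomal proteins, 37 of 78 were higher and 3 lower (median 0.13), with MRPL20 at 81.8, 75.9, 95.1 and 77.9 CPM against 58.4, 58.8, 58.8 and 59.5 CPM (0.49 ± 0.06). Without library 3 of the SLC30A10 control set 29 were higher and 3 lower. Leaving out libraries 1 and 2 of the second control set gave 22 higher and 2 lower. Proteasome subunits were higher at 14 of 31 genes and lower at 0 (median 0.09), and at 8 genes either without library 3 or without libraries 1 and 2 of the second control set. For the nuclear subunits of the respiratory chain the shares, 9 higher and 5 lower of 73, were below those of all tested genes (4 and 3 without library 3 of the SLC30A10 control set, 7 and 1 without libraries 1 and 2 of the second control set).

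**Figure D3:**
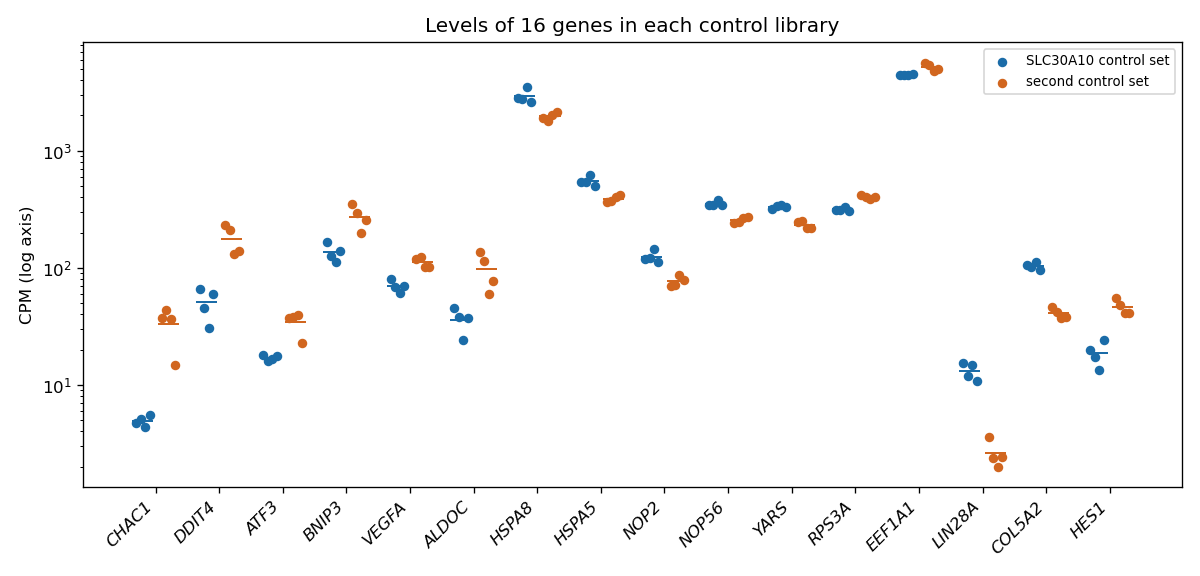
CPM of 16 genes in each of the 8 control libraries on a log axis; the 4 points of a set are replicates 1 to 4 from left to right and lines are means. The 2 sets do not overlap for any of the 16 genes, and library 4 of the second control set lies below its companions for CHAC1 and ATF3.

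Genes that drive the cell cycle differed little. Of DNA replication genes 9 of 45 were higher and 11 lower (median -0.05), shares close to those of all tested genes. Of mitosis genes 6 of 41 were higher and 12 lower (median -0.08). These were 14.6% and 29.3% of the mitosis list, against 18.5% and 20.8% of all tested genes. Without libraries 1 and 2 of the second control set the counts were 4 and 9 for DNA replication and 5 and 6 for mitosis. The mitotic kinase PLK1 was among those higher (0.26 ± 0.06), though not without libraries 3 and 4 of the second control set. Among cell cycle inhibitors and D cyclins 10 of 17 were lower and 2 higher (8 and 1 without libraries 1 and 2 of the second control set, median -0.21). CCNG2, an atypical cyclin linked to arrest, stood at 54.4, 50.2, 35.8 and 54.9 CPM against 94.2, 91.6, 73.1 and 86.1 CPM (-0.82 ± 0.09, adjusted p = 2.39e-07), with no overlap. The inhibitor genes CDKN1A (-0.56 ± 0.15) and CDKN1B (-0.29 ± 0.05) were lower in the SLC30A10 control set, and cyclin D1 (CCND1) was higher (0.29 ± 0.07), a call that was lost without libraries 1 and 2 of the second control set. MYC, the transcription factor behind much of ribosome production, did not pass (-0.16 ± 0.07, adjusted p = 0.0662). It measured 1352, 1379, 1069 and 1528 CPM against 1563, 1501, 1437 and 1470.3 CPM, with library 3 of the SLC30A10 control set the lowest of the 8. FOS, an immediate early gene of growth factor signalling, was low in both sets and lower in the SLC30A10 control set, at 0.366 to 0.974 CPM against 2.06 to 3.07 CPM (-1.93 ± 0.24).

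Pluripotency and early embryo genes were higher at 8 of 23 and lower at 4 (median 0.12), with 2 lower without library 3 of the SLC30A10 control set and 1 lower without libraries 1 and 2 of the second control set. LIN28A, an RNA-binding repressor of let-7 microRNAs, measured 15.5, 11.9, 14.8 and 10.7 CPM against 3.61, 2.36, 1.99 and 2.43 CPM, which is 5.09-fold (log2 difference 2.35 ± 0.16). Its paralogue LIN28B differed by 0.47 ± 0.07 and the telomerase gene TERT by 0.30 ± 0.07. POU5F1 did not pass (-0.10 ± 0.10, adjusted p = 0.457), NANOG had at most 1 count in any library, and SOX2, at 2011 to 2917 CPM against 2748 to 3242 CPM, passed at -0.24 ± 0.07 but not without library 3 of the SLC30A10 control set or without library 1 of the second, alone or with library 2. HOX genes were near the background at 4 of 33 higher and 6 lower (median -0.00382).

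Signalling targets of development were partly lower in the SLC30A10 control set. Of Notch targets and ligands 6 of 15 were lower and 2 higher (5 and 0 without libraries 1 and 2 of the second control set, median -0.16). HES1, a repressor induced by Notch, stood at 20.02, 17.3, 13.3 and 24.1 CPM against 55.5, 47.8, 40.7 and 41.3 CPM (-1.31 ± 0.13, adjusted p = 3.39e-08), each second control library above each of the others. Of Wnt targets and inhibitors 7 of 18 were lower and 1 higher (6 and 0 without libraries 1 and 2 of the second control set, median -0.16), among them NOTUM, a secreted Wnt inactivator (-0.75 ± 0.07), and the ligand gene WNT5A (-0.64 ± 0.06).

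Adhesion and matrix genes split. Among collagens, laminins and integrins 11 of 38 were higher and 14 lower (median -0.07), with 9 lower either without library 3 of the SLC30A10 control set or without libraries 1 and 2 of the second control set. COL5A2, a fibrillar collagen chain, measured 105, 102, 112 and 96.2 CPM against 45.9, 42.03, 37.03 and 38.3 CPM (1.35 ± 0.09, adjusted p = 3.19e-10). The collagen-binding protein SPARC (0.97 ± 0.07) and fibronectin (FN1, 0.85 ± 0.09) were higher too, as were 2 fibroblast markers described with the other cell types, whereas the laminin chain LAMA4 was lower (-1.17 ± 0.10). YAP and TAZ targets were higher at 7 of 22 and lower at 4 (2 without library 3 of the SLC30A10 control set, 1 without libraries 1 and 2 of the second control set), with a median of 0.02. Higher members of this list included the matricellular genes CYR61 (1.11 ± 0.14) and CTGF (1.08 ± 0.20) and the membrane protein gene MYOF (2.24 ± 0.20). YAP1 itself was among the 4 lower members. The matricellular gene THBS1, named from all tested genes and not from this list, was higher too (1.55 ± 0.14). CYR61 stood at 81.1, 73.8, 105 and 64.9 CPM against 38.6, 41.5, 35.3 and 34.6 CPM, with library 3 of the SLC30A10 control set the highest.

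Large differences also lay outside the stress and growth lists. PI15, a secreted protease inhibitor gene, was at 14.6, 16.6, 22.1 and 14.3 CPM in the SLC30A10 control set and 1.83, 1.70, 1.32 and 0.850 CPM in the second control set, 0.429 to 0.683 CPM in the SLC30A10 knockout and 0.429 to 1.25 CPM in the second knockout. It was thus high in a single group of the 4. CTCFL, the germline paralogue of CTCF, was low in the same group, at 3.96, 3.40, 1.40 and 2.38 CPM, against 13.4 to 19.9 CPM in the second control set, 15.4 to 21.7 CPM in the SLC30A10 knockout and 15.4 to 24.3 CPM in the second knockout. PPP2R2B, a regulatory subunit of phosphatase PP2A (11.4 to 18.9 CPM against 2.91 to 3.69 CPM), and the protocadherin PCDH9 (18.3 to 27.4 CPM against 6.66 to 7.76 CPM) were also higher. CAPN6, a calpain family gene (-2.21 ± 0.16), SLIT3, which encodes an axon guidance ligand (-1.79 ± 0.17), and the arginine synthesis enzyme ASS1 (-1.38 ± 0.14) were lower, all without overlap.

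To see whether the same genes separated the other libraries of the 2 experiments, the SLC30A10 knockout was set against the second knockout in the same fit. No library is shared by the 2 comparisons, but the knockout comparison also holds both deletions, which cannot be told apart from the experiment. It passed at 7856 genes (50.5%). Of the 6111 genes called between the control sets, 2930 (47.9%, or 37.3% of the knockout calls) were called in the same direction between the knockouts and 781 (12.8%) in the opposite direction. The 2 differences differed from each other at 4873 genes (31.3%).

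The calls of the hypoxia, ribosome biogenesis, glycolysis and heat shock lists lay mostly on the same side in both comparisons, though not always at the same size. Between the knockouts 21 of 23 hypoxia genes were lower and 0 higher in the SLC30A10 knockout (median -1.06), with BNIP3 at -1.34 ± 0.13 and PDK1 at -1.31 ± 0.14. Of ribosome biogenesis genes 49 of 57 were higher and 0 lower (median 0.30), and the 2 differences differed at 8 of 57. NOP2 was 0.62 ± 0.07 higher between the knockouts, close to its value between the controls. Glycolysis genes were lower at 15 of 20 and higher at 1 (median -0.31). Heat shock genes were higher at 18 of 19 and lower at 0 (median 0.40), and HSPA8 differed by 0.96 ± 0.07. The 2 differences differed at 14 of 19 heat shock genes, each with the larger value between the knockouts, and at 9 of 23 hypoxia and 7 of 20 glycolysis genes.

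Ribosomal proteins, tRNA synthetases and parts of the stress response did not. Of 78 ribosomal protein genes 23 were higher and 3 lower between the knockouts (median 0.05), and at 62 of 78 genes the 2 differences differed, where 31.3% of all tested genes did. RPS3A was at 390.3 to 417 CPM in the SLC30A10 knockout and 343 to 388 CPM in the second knockout, a knockout difference of 0.18 ± 0.04 against -0.35 ± 0.04 between the controls (difference of the 2, -0.53 ± 0.06). For EEF1A1 the knockout difference was 0.08 ± 0.04. Among tRNA synthetases 7 of 22 were higher and 8 lower, and the 2 differences differed at 11. CARS differed by -0.66 ± 0.14 between the knockouts. Of the integrated stress response genes 37 of 46 were lower and 1 higher between the knockouts (median -0.73), with ATF4 at -0.70 ± 0.09 and ASNS at -1.38 ± 0.17, and the 2 differences differed at 33 of 46. The second knockout libraries were spread for this list, with per-library medians of 0.21, 0.37, -0.04 and 0.70 in libraries 1 to 4, each on the log2 scale relative to the 8 control libraries, against -0.39 to -0.33 in the SLC30A10 knockout. ASNS stood at 135 to 364 CPM in them, highest in library 4 and lowest in library 3.

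Single genes reversed. CHAC1 stood at 3.48 to 4.92 CPM in the SLC30A10 knockout and 0.674 to 1.18 CPM in the second knockout, so that it was high in the second control set alone of the 4 groups. Its knockout difference was 2.26 ± 0.41 (difference of the 2, -5.00 ± 0.46). DDIT4 kept its direction, at 27.3 to 39.7 CPM against 178 to 263 CPM. NQO1 and COL5A2, both higher among the SLC30A10 controls, were lower in the SLC30A10 knockout than in the second knockout, with differences of -1.43 ± 0.10 and -3.26 ± 0.12. LIN28A was at 6.56 to 7.64 CPM in the SLC30A10 knockout and at no more than 0.303 CPM in any library of the second knockout.

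**Figure D4:**
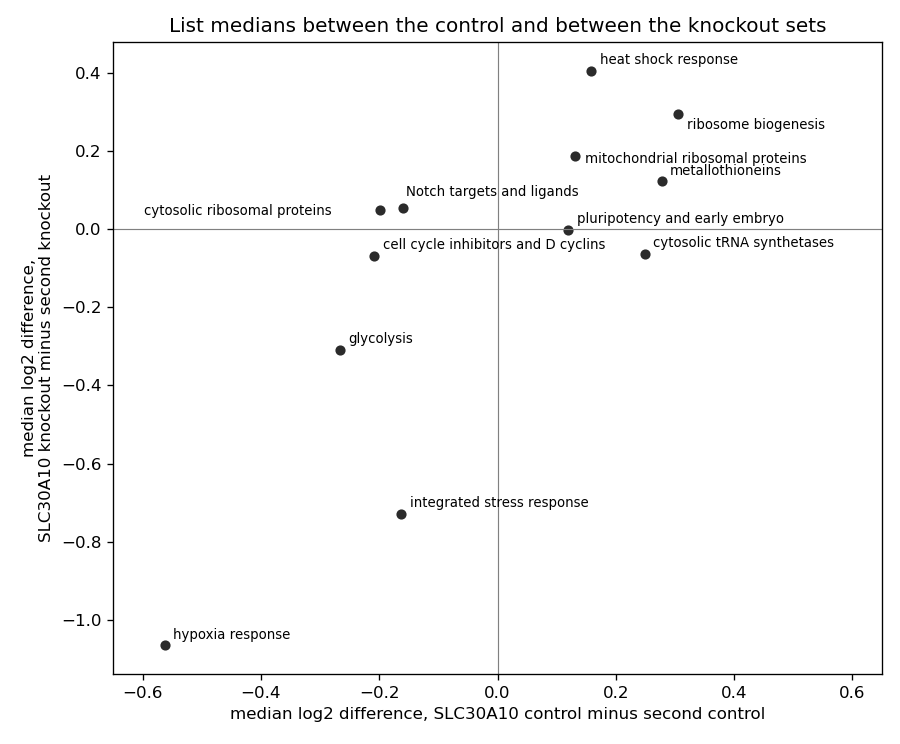
Each point is a list, placed by its median log2 difference between the control sets (horizontal) and between the knockout sets (vertical). Hypoxia lies furthest down at -0.56 and -1.06, ribosome biogenesis lies up and right at 0.31 and 0.30, and cytosolic ribosomal proteins lie on the left at -0.20 with 0.05 between the knockouts.

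Markers of other cell types were mostly low in both sets, and no gene list defines HAP1 itself. Of 16 haematopoietic markers, 11 had no more than 3 counts in any of the 8 libraries, PTPRC among them. MPO, HBG1, HBB, CD3E and TYROBP had 0, and the summed level was 10.97 to 12.9 CPM in the SLC30A10 control set and 14.3 to 17.7 CPM in the second control set, nearly all of it CORO1A. The 10 fibroblast markers, with LUM and FAP at 0, summed to 36.9 to 45.6 CPM and 34.4 to 40.8 CPM, most of it COL1A1. The 11 epithelial markers, with KRT5, KRT7, KRT14, KRT19 and GRHL2 at 0, summed to 56.97 to 65.1 CPM and 54.3 to 59.4 CPM. Most of it was KRT18, with a mean of 41.8 CPM over the 8 libraries. Of the 4 epithelial markers tested 1 was higher and 0 lower. Endothelial markers, with CDH5 at 0, summed to 11.6 to 13.04 CPM and 11.2 to 12.3 CPM, and hepatocyte markers, with APOB, SERPINA1 and TTR at 0, to less than 1 CPM in every library. The haematopoietic sums did not overlap between the sets. Of the 3 fibroblast markers with enough counts to be tested, COL1A1 was not called and 2 were higher. THY1 ranged from 1.34 to 2.07 CPM against 0.363 to 0.903 CPM (1.28 ± 0.25), and POSTN, named after its values were seen, from 0.728 to 1.03 CPM in the SLC30A10 control set while it had 0 counts in every second control library. The part of these markers in the results, those of the matrix genes COL5A2, SPARC and FN1 included, was not tested.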

How the data were processed

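Whole-number read counts per gene symbol (33121 entries, a column for each of 16 libraries) were used as deposited by the authors. The submitters' processing notes name HISAT2, featureCounts, DESeq2 and the build hg38 (GRCh38). Their versions, the annotation and the strand setting are not given in the sources used here. The gene deleted in the second knockout and 1 gene that the naming rule selects are not reported here. Groups were taken from titles and genotype labels. The comparison, the gene lists and the naming rule were chosen with earlier results of these data known.

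Genes under edgeR's filterByExpr limits (10 counts, 15 in total) were dropped, which left 15569, and TMM factors scaled the libraries. All 16 were fitted with 4 group means in edgeR 4.0.16 (R 4.3.3), and quasi-likelihood F tests were made for the SLC30A10 control set minus the second control set, the SLC30A10 knockout minus the second knockout, and the difference of both. P-values were adjusted over all tested genes (Benjamini-Hochberg, threshold 0.05). Of 1400 listed symbols in 46 lists, those matched were described by counts and medians without a set test. Symbols of the 13 mitochondrially encoded mRNAs did not match and are not analysed here. The naming rule took the anchors of each list. It added up to 4 higher and 4 lower called members of each list averaging 1 CPM or more over the control libraries. It also took the 10 highest and 10 lowest called genes without overlap that averaged 5 CPM or more. Besides the 1 gene not reported, the text leaves out others that the rule selects, some of the 10 highest and 10 lowest among them. PDK1, LTV1, NOL6 and POSTN fell outside this rule. At these library totals 3 counts equal 0.181 to 0.183 CPM in the control libraries, a floor that covers counting error only. The fit was tested on simulated data. Alternatives were a DESeq2 1.42.0 Wald test, 2 other scalings, 2 filters, fits of the 8 control libraries with and without the replicate number as a block, leaving out each control library, stricter thresholds and removal of trends on gene length or GC content. Leaving out libraries 1 and 2, or 3 and 4, of the second control set, and the E-box and hypoxia motifs, were chosen after seeing the data.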

Additional observations from a re-analysis of the deposited data

Results flagged for a closer look

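Some control libraries stood apart from the 3 others of their set for a value reported above, with a gap to the nearest library that took most of the range of the 4 (Dixon's criterion, which chance meets in about 1 in 20 groups). With as many genes and lists as are reported here, such cases are to be expected by chance alone. In the second control set these were ATF3 in library 4 (22.9 CPM), HSP90AB1 and MT1E in library 3 (3376 and 91.5 CPM) and EIF4A2 in library 1 (624 CPM). In the SLC30A10 control set they were LDHA in library 1 (1647 CPM), and UTP14A (74.3 CPM), NOP56 (382 CPM) and ASS1 (34.2 CPM) in library 3. Library 3 of that set also stood apart in the list medians of NRF2 targets (0.0577), mitochondrial ribosomal proteins (0.148), YAP and TAZ targets (-0.0383) and collagens, laminins and integrins (-0.138), each on the log2 scale relative to the mean of the 8 control libraries. It is the library furthest from the second control set on the first principal component.

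The difference between the SLC30A10 and the second group depended on whether controls or knockouts were compared, by a test of the difference of the 2 differences, at a part of each list. Against 31.3% of all tested genes, it passed at 62 of 78 cytosolic ribosomal proteins, 33 of 46 integrated stress response genes, 14 of 19 heat shock genes, 23 of 38 collagens, laminins and integrins and 15 of 23 pluripotency genes. It passed at 11 of 22 tRNA synthetases, 11 of 24 NRF2 targets, 11 of 22 YAP and TAZ targets, 18 of 38 initiation factors, 8 of 15 Notch genes, 9 of 23 hypoxia genes and 7 of 20 glycolysis genes. The smallest shares were 5 of 30 ER chaperones, 8 of 57 ribosome biogenesis genes, 16 of 78 mitochondrial ribosomal proteins, 1 of 6 metallothioneins, 6 of 18 Wnt genes and 5 of 17 cell cycle inhibitors and D cyclins.

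For single genes the log2 difference between the control sets minus that between the knockouts was -5.00 ± 0.46 for CHAC1, -3.01 ± 0.43 for LIN28A, -2.44 ± 0.25 for CTCFL, -0.53 ± 0.06 for RPS3A, -0.39 ± 0.10 for HSPA8 and -0.31 ± 0.05 for EEF1A1. It was positive for COL5A2 (4.61 ± 0.15), PI15 (3.97 ± 0.49), NQO1 (2.59 ± 0.14), ASNS (1.65 ± 0.24), CARS (1.22 ± 0.20), DDIT4 (1.03 ± 0.25), ATF4 (0.86 ± 0.12) and NOP56 (0.17 ± 0.06). LIN28A and HSPA8 kept their direction in both comparisons and differed in size, as did DDIT4 and NOP56.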

How the results depend on the processing

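The number of genes called between the control sets stayed within 1.5 times of 6111 under every alternative but 2: with a log2 difference of at least 1 it was 218 (133 higher, 85 lower), and without libraries 1 and 2 of the second control set 3783 (1721 higher, 2062 lower). Leaving out a single control library gave 5053 (library 3 of the SLC30A10 control set) to 6125, with 2494 to 3020 higher and 2559 to 3105 lower. The 2930 genes called in the same direction in the knockout comparison became 1810 at an adjusted p of 0.01, 57 with log2 differences of at least 1 in both and 1823 without libraries 1 and 2 of the second control set, and 2518 to 2963 when a control library was left out. With the replicate number as a block 6096 genes were called. The deviations of same-numbered libraries correlated at 0.0428, 0.0216, 0.110 and -0.103, so the numbers were not taken to pair the libraries. Of the list medians, that of fatty acid synthesis changed sign from -0.04 to 0.0302 with the trend on gene length removed, and the cause was not tested. In all, the medians of 10 lists, which lay between -0.0416 and 0.0366, changed sign under at least 1 alternative, to values between -0.0390 and 0.0606, among them those of interferon-stimulated, imprinted, neural and HOX genes without libraries 1 and 2 of the second control set. Their side of 0 is not settled. Of 1781 comparisons of a named gene with an alternative, 1705 kept its direction and its side of the threshold, 65 lost the call and 11 gained one. Most of the losses came from requiring a log2 difference of 1. ASNS, ATF4, HIF1A and MYC gained a call under some alternatives. The labels do not tie libraries to cultures, and no value here separates the culture from the experiment.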

Other observations

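Over all tested genes 18.5% were higher and 20.8% lower, and several of the lists that follow lay near these shares. Cholesterol synthesis genes were higher at 6 and lower at 7 of 25 (median 0.01), fatty acid synthesis genes at 2 and 4 of 15 (median -0.04) and interferon-stimulated genes at 3 and 6 of 24 (median -0.03). Nucleotide synthesis genes were higher at 7 and lower at 1 of 21 (median 0.09), and mTORC1 pathway components at 6 and 3 of 27 (median 0.04). The p53 targets were higher at 4 and lower at 9 of 22, with a median of -0.12 that was -0.03 without library 3 of the SLC30A10 control set. Immediate early genes were higher at 5 and lower at 10 of 30 (median -0.15), NF-kB targets at 3 and 0 of 10 (median 0.17), TGF-beta and BMP targets at 2 and 7 of 18 (median -0.09) and elongation and termination factors at 4 and 2 of 12 (median -0.06). Mitochondrial aminoacyl-tRNA synthetases were higher at 6 and lower at 0 of 17 (median 0.06). Neural genes were higher at 9 and lower at 5 of 25 (median 0.01), mesenchymal and mesodermal genes at 5 and 8 of 26 (median 0.01) and endodermal and epithelial genes at 2 and 2 of 12 (median 0.01). Clustered protocadherins were higher at 1 and lower at 3 of 21 (median -0.15), imprinted genes at 1 and 4 of 16 (median 0.04) and cancer-testis genes, of which few of 50 were tested, at 0 and 2 of 6 (median -0.26). Several of these counts fell without libraries 1 and 2 of the second control set, but calls over all tested genes fell too. Those went from 2875 to 1721 higher and from 3236 to 2062 lower. With these libraries left out, 6 p53 targets, 6 immediate early genes, 4 cholesterol synthesis genes, 5 mesenchymal genes and 2 imprinted genes were lower. On the other side 2 p53 targets, 4 neural genes, 2 mTORC1 components, 1 interferon-stimulated gene and 1 NF-kB target were higher. The NF-kB count was also 1 without library 3 of the SLC30A10 control set.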
